A study of Rattus norvegicus with 12 samples.

Results

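The Rtl1-antisense miRNAs are a run of imprinted microRNAs of the Dlk1-Dio3 region, and they were followed here in the rat aorta. They were chosen by name, as every listed miRNA from the hairpins miR-127, miR-136, miR-431, miR-433 and miR-434 with all arms that the table holds, which gave 9 of 641 listed miRNAs from 5 hairpins. The table lists them with the rat prefix, for example rno-miR-127-3p, rno-miR-136-3p, rno-miR-433-3p and rno-miR-434-5p, and the prefix is left out from here on. Small RNA was sequenced from aortas of female SHR (spontaneously hypertensive rats), an inbred model of hypertension. There were 6 samples labelled EWH and 6 controls that had received saline. The study was concerned with peptides from egg white that lower blood pressure. The labels used here give no age, dose, route or length of treatment, do not spell out EWH, and name no animals. P-values therefore speak only for the scatter among the 12 samples, part of which may be technical.

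Rtl1 is a retrotransposon-derived gene that is read from the paternal chromosome. The miRNAs opposite to it are made from a maternal transcript that runs antisense to Rtl1, and because they are fully complementary to its mRNA they can direct its cleavage, as worked out in mouse. The wider maternal miRNA domain is most active in embryo, placenta and nervous tissue and is low in most adult organs.

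In the RefSeq gene table for the assembly GRCr8, all 5 hairpin genes lie on chromosome 6 inside the interval of Rtl1, between Meg3 and Dio3. Their order is Mir431, Mir433, Mir127, Mir434, Mir136, all on the plus strand, and the same interval holds 1 more miRNA gene, Mir3543, on the opposite strand and over Mir434. The data themselves were made on another build, rn6, so no coordinates are given. Mature sequences of 7 of the 9 members were in the RefSeq table (GRCr8) and are shown because they define what was counted. They are written 5′ to 3′ with the seed, bases 2 to 8, in capitals.
miR-431: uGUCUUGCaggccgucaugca
miR-433-5p: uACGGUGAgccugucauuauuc
miR-433-3p: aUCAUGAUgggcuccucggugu
miR-127-3p: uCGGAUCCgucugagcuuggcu
miR-434-5p: aGCUCGACucaugguuugaacca
miR-434-3p: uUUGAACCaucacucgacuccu
miR-136-3p: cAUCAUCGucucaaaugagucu
The remaining members are miR-127-5p and miR-136-5p. The 7 sequences were 21 to 23 nt long and carried 7 different seeds, and none of these seeds occurred in another of the 693 named mature miRNAs of the table. No seed was shared among these 7 members.

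The hairpins of the most abundant members are shown with the mature arms of that table in capitals, because the reads divided very unevenly between arms in Mir127 and Mir433 and much more evenly in Mir434.
Mir433: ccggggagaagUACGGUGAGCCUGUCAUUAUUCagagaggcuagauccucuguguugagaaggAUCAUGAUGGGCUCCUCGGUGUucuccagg
Mir127: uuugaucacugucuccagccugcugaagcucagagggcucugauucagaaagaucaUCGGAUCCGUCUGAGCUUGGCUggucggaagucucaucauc
Mir434: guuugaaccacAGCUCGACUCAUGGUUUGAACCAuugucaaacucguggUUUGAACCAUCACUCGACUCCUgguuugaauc

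Values are in rpm, that is, reads of a miRNA divided by a library total, scaled to 1000000 reads and not divided by length. The totals were 23887799 to 24772944 reads, so that 1 read was worth 0.0404 to 0.0419 rpm and a value of 0 allowed at most 3 reads, or 0.121 to 0.126 rpm. These limits cover counting error only, and reads were not marked by molecular identifiers in the sources used here. The smooth muscle miRNA miR-143-3p was the most abundant miRNA, at 383398 ± 36932 rpm in EWH and 395202 ± 31339 rpm in control (SD, n = 6 each). EWH 3 and EWH 4 stood apart in a principal component analysis: on component 1, which held 46.3% of the variance, they scored 11.97 and 16.2, against −7.94 to 4.94 for the others. Means and fold changes of the members are therefore given with and without them.

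The Rtl1-antisense miRNAs were a minor part of the aortic small RNA. Summed over the 9 members they came to 303 ± 321 rpm in EWH and 75.6 ± 35.5 rpm in control (SD, n = 6 each), or 0.0384% of the listed reads in EWH and 0.0097% in control. The lowest, median and highest sums were 74.6, 154.2 and 899 rpm in EWH and 38.9, 66.4 and 125 rpm in control. The sum was above the highest control in 4 of 6 EWH libraries, and EWH 1 and EWH 2 lay within the range of the controls. Without EWH 3 and 4 the EWH mean was 120 rpm (SD 46.1, n = 4), or 1.58 times the control mean in place of 4.01 times. In bulk tissue, fewer cells of a type and less RNA per cell cannot be told apart.

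The members spanned a wide range of levels in the same order in nearly every library. MiR-127-3p led, at rank 85 among the 641 miRNAs by mean rpm, followed by miR-434-3p (rank 149), miR-434-5p (156), miR-433-3p (182), miR-136-3p (240), miR-431 (283), miR-136-5p (341), miR-127-5p (350) and miR-433-5p (457). Each member exceeded the next in 12 of 12 libraries, apart from miR-136-5p over miR-127-5p, which held in 7 of 12 libraries, so that the order of this pair was not settled. Because ligation and amplification treat sequences differently, read numbers rank reads and are only a guide to molecules.

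**Figure D1:**
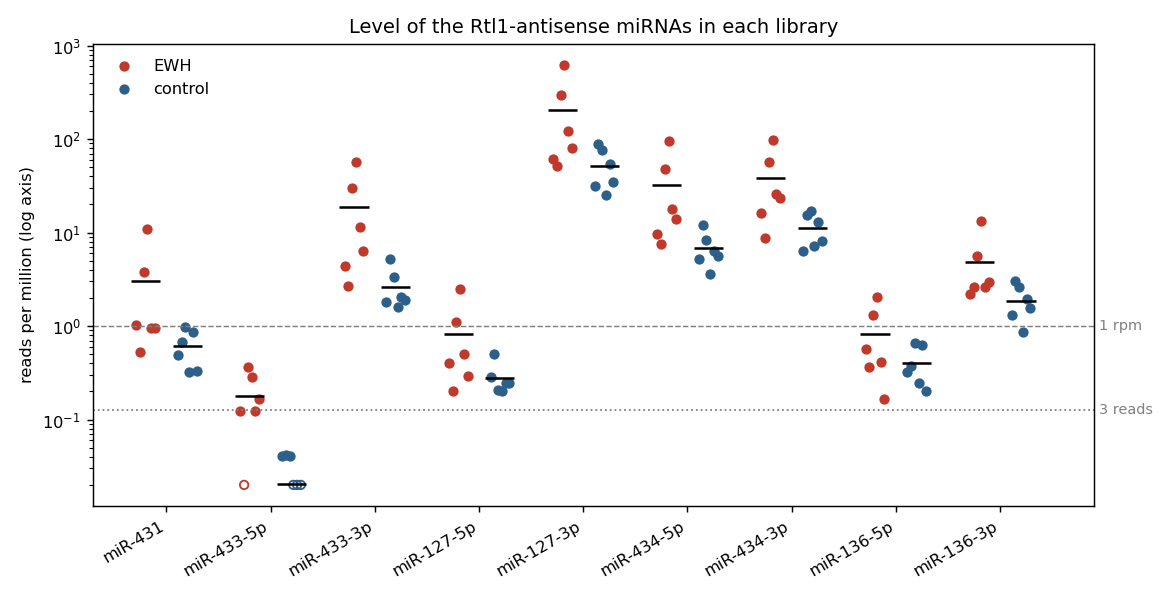
Level in rpm (log axis) of the 9 Rtl1-antisense miRNAs in the order of their hairpins, with a point per library, EWH in red and control in blue, the black bar the mean of 6 libraries and open points at the bottom a value of 0. The dashed line marks 1 rpm, the limit of the filter, and the dotted line 3 reads. EWH 3 and EWH 4 are the 2 highest points of every member.

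MiR-127-3p, the best known of these miRNAs and in mouse a guide of Rtl1 cleavage, was the most abundant member. Its lowest, median and highest values were 51.9, 100.1 and 620 rpm in EWH and 24.9, 44.9 and 88.0 rpm in control. EWH 3, 4 and 5 lay above every control, while EWH 1, 2 and 6 fell within the range of the controls. The group means were 205 ± 222 rpm in EWH and 51.7 ± 25.9 rpm in control (SD, n = 6 each), and the EWH mean without EWH 3 and 4 was 78.4 ± 30.4 rpm (SD, n = 4). The other arm, miR-127-5p, had 5 to 60 reads per library, with means of 0.828 ± 0.864 rpm in EWH and 0.281 ± 0.112 rpm in control (SD, n = 6 each), and 0.350 rpm in EWH without EWH 3 and 4.

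MiR-433-3p, studied in rodents for its part in fibrosis of kidney and heart, had the largest ratio of group means among the 5 tested members, 7.06. Its lowest, median and highest values were 2.70, 8.93 and 56.4 rpm in EWH and 1.59, 1.97 and 5.18 rpm in control. EWH 3 to 6 lay above every control, and EWH 1 and 2 lay within the range of the controls. The means were 18.6 ± 21.1 rpm in EWH and 2.64 ± 1.39 rpm in control (SD, n = 6 each). The EWH mean was 6.25 rpm without EWH 3 and 4, or 2.37 times the control mean.

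The opposite arm, miR-433-5p, was at the edge of detection, with 26 reads summed over the EWH libraries and 3 over the controls. It was listed at 0 in 1 EWH library and 3 controls, and 9 and 7 of the EWH reads came from EWH 3 and EWH 4. The ratio of the sums was 8.67, with an exact 95% interval for counting error only of 2.66 to 44.7, which leaves out the spread between libraries. Its EWH mean was 0.178 rpm, or 0.104 rpm without EWH 3 and 4, and its control mean 0.0206 rpm.

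The arms of miR-434, a hairpin whose miRNAs are also known to pair with Rtl1 in mouse, were both abundant. MiR-434-5p had lowest, median and highest values of 7.59, 16.02 and 95.1 rpm in EWH and 3.58, 5.96 and 12.2 rpm in control. MiR-434-3p had 8.76, 24.6 and 98.8 rpm in EWH and 6.30, 10.6 and 17.0 rpm in control. For both arms 4 EWH libraries, EWH 3 to 6, lay above every control and EWH 1 and 2 did not. The means were 32.1 ± 34.2 rpm in EWH and 6.87 ± 3.03 rpm in control for miR-434-5p, and 38.2 ± 33.9 rpm in EWH and 11.2 ± 4.57 rpm in control for miR-434-3p (SD, n = 6 each). The ratios of means were 4.67 for miR-434-5p and 3.42 for miR-434-3p, and 1.79 for miR-434-5p and 1.65 for miR-434-3p without EWH 3 and 4.

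MiR-136-3p, from the last hairpin of the run, had lowest, median and highest values of 2.20, 2.80 and 13.3 rpm in EWH and 0.854, 1.75 and 3.01 rpm in control. EWH 3 and 4 were above every control and the other 4 EWH libraries were within the range of the controls, so that the ratio of means was 2.60 with all libraries and 1.39 without these libraries. Its other arm, miR-136-5p, averaged 0.813 ± 0.725 rpm in EWH and 0.405 ± 0.192 rpm in control (SD, n = 6 each), and without EWH 3 and 4 the EWH mean was 0.379 rpm, below that of the controls.

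MiR-431 is listed without an arm and has been studied in mouse muscle regeneration. Its lowest, median and highest values were 0.525, 0.991 and 10.8 rpm in EWH and 0.325, 0.578 and 0.988 rpm in control. EWH 1, 3 and 4 lay above the highest control, EWH 1 by a narrow margin at 1.02 rpm. The means were 3.005 ± 3.99 rpm in EWH and 0.610 ± 0.279 rpm in control (SD, n = 6 each), and 0.865 rpm in EWH without EWH 3 and 4.

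The comparison of EWH with control asked which aortic miRNAs differ with the treatment. It was made on log2(rpm + 1) with limma across the 303 miRNAs that reached 1 rpm in at least 6 of 12 libraries, so fold changes are on that scale and understate the change of low miRNAs. Of the members, 5 of 9 passed this filter, and they did so in 5 or 6 controls as well as in 6 EWH libraries. The other 4, miR-127-5p, miR-136-5p, miR-431 and miR-433-5p, reached 1 rpm in at most 3 libraries, all of them EWH, and were not tested. All 5 tested members had higher mean log2 values in EWH, as did 39.9% of all tested miRNAs. Their median log2 fold change was 1.50, or 2.83-fold, beside −0.06 for all tested miRNAs.

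With limma and Benjamini-Hochberg adjustment over the 303 miRNAs, no member passed at 0.05, nor did any other miRNA (0% called). The log2 fold change was 1.82 (SE 0.60, limma adjusted p = 0.129) for miR-433-3p. It was 1.58 (SE 0.54, limma adjusted p = 0.138) for miR-434-5p. It was 1.50 (SE 0.58, limma adjusted p = 0.163) for miR-127-3p. For miR-434-3p it was 1.35 (SE 0.50, limma adjusted p = 0.163), and for miR-136-3p 0.85 (SE 0.35, limma adjusted p = 0.171). MiR-433-3p, miR-434-3p and miR-434-5p had 4 EWH libraries above every control, which 12.5% of the tested miRNAs had, and no member had all 6 above, as 0.330% had. At an unadjusted limma p under 0.05 all 5 were higher in EWH, a call that 15.2% of all tested miRNAs also met.

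Whole reads could be recovered from the values, and count models called more miRNAs. The quasi-likelihood test of edgeR, adjusted over all 303 by Benjamini-Hochberg, called 4 of the 5 tested members, all higher in EWH, where it called 11.2% of the 303 miRNAs in that direction. The edgeR log2 fold changes were 2.75 for miR-433-3p (adjusted p = 0.031), 2.17 for miR-434-5p (0.031), 1.72 for miR-434-3p (0.036) and 1.92 for miR-127-3p (0.046). MiR-136-3p missed the threshold at 1.36 (edgeR adjusted p = 0.059). DESeq2 called all 5, and 15.2% of the 303 miRNAs as higher, with adjusted p-values of 0.000448 for miR-433-3p to 0.0155 for miR-136-3p.

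The edgeR calls did not outlast the loss of every library, although all log2 fold changes stayed positive. With edgeR, no member was called without EWH 3, without EWH 4, or without control 1, 4, 5 or 6. Without 1 of these 4 controls the edgeR log2 fold changes stayed near their values from 12 libraries. They were 2.65 to 2.70 for miR-433-3p and 1.79 to 1.93 for miR-127-3p. Without EWH 4 the edgeR log2 fold changes were 2.13 for miR-433-3p and 1.31 for miR-127-3p. The DESeq2 fit was not repeated with libraries left out. Without control 2 the edgeR calls among members were miR-433-3p and miR-434-5p, and without EWH 1 all 5 members were called. With 1 library left out edgeR called 0 to 46 of all 303 miRNAs, in either direction. Limma called 2 members, miR-433-3p and miR-434-3p, without EWH 2, where it called 24 of the 303. Without EWH 3 and 4 together all 5 members still averaged higher in EWH. Their median log2 fold change was 0.66, where 34.3% of the tested miRNAs had higher means and the median over all was −0.11. MiR-433-3p then stood at 0.92 (SE 0.35, limma adjusted p = 0.309) and miR-127-3p at 0.66 (SE 0.38, limma adjusted p = 0.404), and edgeR called no miRNA (0% of 303). At an unadjusted p under 0.05 in these 10 libraries, limma had miR-433-3p and miR-434-5p, and 7.26% of all tested miRNAs, as higher.

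**Figure D2:**
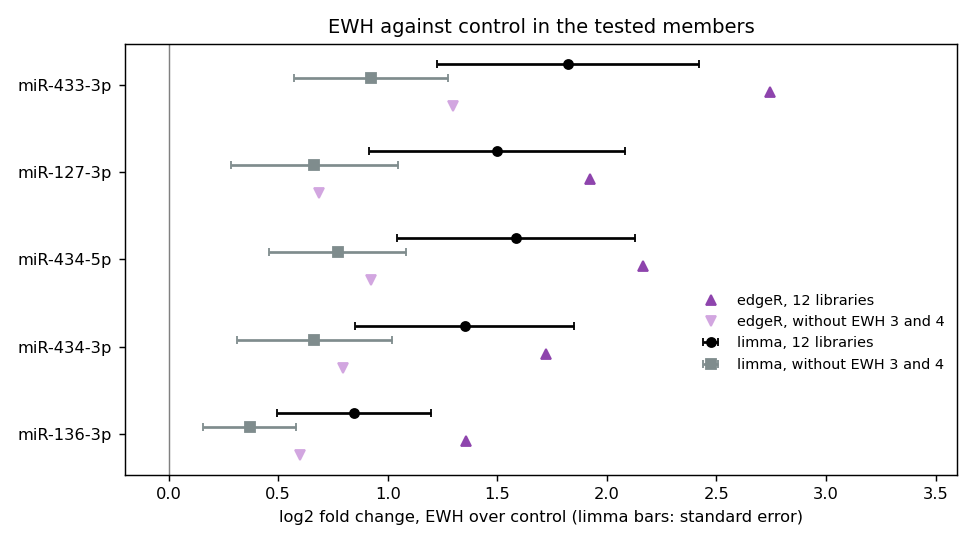
Log2 fold change of EWH over control for the 5 tested members with limma on log2(rpm + 1) and with edgeR on recovered reads, each with all 12 libraries and without EWH 3 and 4. Bars on the limma points are standard errors. All points lie right of 0, and the limma value of miR-433-3p is 1.82 with 12 libraries and 0.92 without EWH 3 and 4.

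Within each group the levels of the 5 tested members ranked the libraries in nearly the same order, apart from miR-136-3p in EWH. In EWH, the log2 value of miR-127-3p had a Pearson correlation of 0.998 with miR-434-5p, 0.99 with miR-433-3p, 0.97 with miR-434-3p and 0.94 with miR-136-3p (n = 6). Among controls it was 0.95 with miR-434-5p, 0.90 with miR-433-3p, 0.96 with miR-434-3p and 0.99 with miR-136-3p (n = 6). Spearman's rho was 1 for 3 of the 4 pairs in each group, and 0.71 for miR-136-3p in EWH and 0.89 for miR-434-3p among controls. In exact permutation tests, with Benjamini-Hochberg adjustment over 10 relations (miR-3543 included), adjusted p was 0.0020 to 0.0154 for the 8 Pearson values, and 0.0040 to 0.136 for the 8 values of rho. The lowest of these come from unadjusted p-values of 0.0014 and 0.0028, the smallest that 6 samples allow.

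Leaving out the 2 EWH libraries farthest from the median of miR-127-3p, EWH 3 and 4, gave Pearson values of 0.99 for miR-433-3p, 0.98 for miR-434-5p and 0.88 for miR-434-3p, but 0.30 for miR-136-3p (n = 4). The relation of miR-136-3p in EWH thus rested on those 2 libraries. Leaving out control 2 and 4 gave 0.89 to 0.99 among controls (n = 4). The points of a library share its total, so a scaling error would move all members together.

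**Figure D3:**
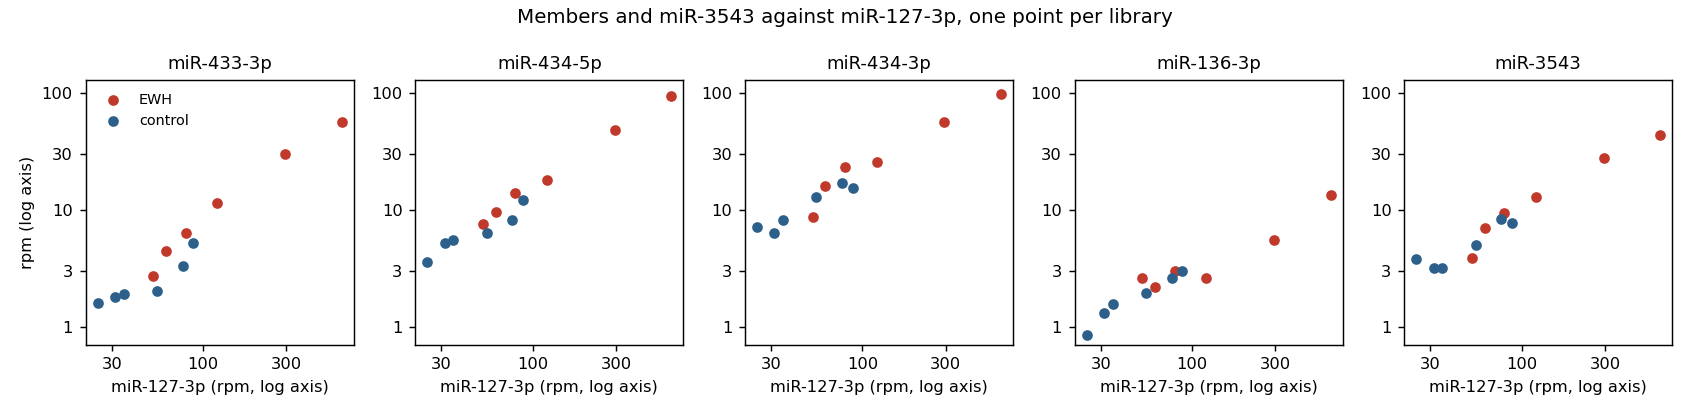
Level in rpm of 4 members and of miR-3543 (vertical, log axis) against miR-127-3p (horizontal, log axis), with a point per library, EWH in red and control in blue. In each panel EWH 3 and EWH 4 lie at the upper right, and the controls, further to the lower left, overlap in part with the other EWH libraries. Per 100 reads of miR-127-3p, EWH 3 and EWH 4 held 1.89 and 2.14 reads of miR-136-3p, below the 3.39 to 4.42 of the controls. Of miR-433-3p they held 10.3 and 9.09, above the 3.71 to 6.36 of the controls.

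Each member was also expressed per 100 reads of miR-127-3p in the same library, a ratio that no library total affects. The ratio was chosen after the values were seen. MiR-434-5p stood at 15.7 ± 1.09 reads per 100 in EWH and 13.9 ± 2.29 in control (SD, n = 6 each). MiR-434-3p stood at 21.5 ± 5.35 in EWH and 22.6 ± 3.76 in control. MiR-136-3p stood at 3.10 ± 1.24 in EWH and 3.73 ± 0.44 in control, and miR-431 at 1.28 ± 0.37 in EWH and 1.24 ± 0.33 in control (SD, n = 6 each).

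MiR-433-3p had the lowest p of the 7 ratios. Its lowest, median and highest ratios were 5.21, 8.52 and 10.3 reads per 100 of miR-127-3p in EWH and 3.71, 5.58 and 6.36 in control. All EWH libraries except EWH 2 lay above the highest control. The means were 8.22 ± 1.84 in EWH and 5.25 ± 1.01 in control (SD, n = 6 each), and 7.49 in EWH without EWH 3 and 4. The log2 difference was 0.64 (standard error 0.19), with an exact two-sided permutation p = 0.0108 over 924 splits, and adjusted p = 0.0758 by Benjamini-Hochberg over 7 ratios, which misses the threshold. Without EWH 2 it was 0.76 with an exact permutation p adjusted to 0.0152, and without EWH 3 and 4 it was 0.50 with an exact permutation p adjusted to 0.333, the lowest and highest adjusted p over 13 sets with libraries left out. MiR-136-5p and miR-127-5p went the other way without passing. MiR-136-5p stood at 0.49 ± 0.27 per 100 in EWH and 0.837 ± 0.277 in control (SD, n = 6 each). Its log2 difference was −0.86, the largest of the 7 in size (exact permutation, adjusted p = 0.197). MiR-127-5p stood at 0.434 ± 0.114 in EWH and 0.619 ± 0.237 in control (exact permutation, adjusted p = 0.230, SD, n = 6 each). MiR-433-5p had values of 0 and was given no ratio. For the remaining 4 ratios the exact permutation p, adjusted over the 7, was 0.230 to 0.827. Their log2 differences were −0.35 for miR-136-3p, −0.09 for miR-434-3p, 0.05 for miR-431 and 0.20 for miR-434-5p.

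**Figure D4:**
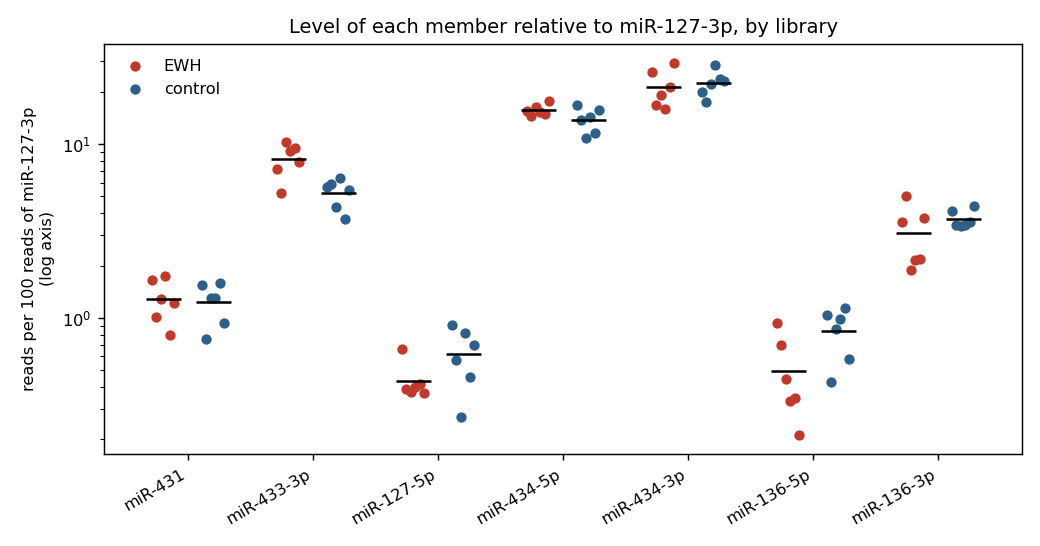
Reads of each member per 100 reads of miR-127-3p (log axis), with a point per library, EWH in red and control in blue, and the black bar the mean of 6 libraries. In miR-433-3p 5 of 6 EWH points lie above the highest control, at 6.36, while in miR-434-3p and miR-431 the groups overlap widely.

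The arm that held the reads differed between hairpins more than between groups. In miR-127, 99.6% ± 0.11 of the reads came from the 3p arm in EWH and 99.4% ± 0.23 in control. In miR-433 the 3p share was 98.7% ± 1.09 in EWH and 99.3% ± 0.90 in control. In miR-136 it was 86.0% ± 5.42 in EWH and 81.8% ± 5.53 in control, and in miR-434 57.1% ± 4.96 in EWH and 61.8% ± 5.90 in control (SD, n = 6 each). Only miR-434 had both arms among the tested miRNAs. Its log2 ratio of 5p to 3p was 0.23 higher in EWH (SE 0.17, limma adjusted p = 0.600 over 67 hairpins with both arms tested, 0% of which were called).

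MiR-434-3p has a near mirror image in the table. The mature sequence of miR-3543, counted as a separate miRNA, is complementary over 22 of its 23 nt to all 22 nt of miR-434-3p, and the 81 nt of the Mir434 hairpin lie wholly within the Mir3543 hairpin on the other strand. The pair is shown with the complementary bases in capitals, each 5′ to 3′.
miR-3543: cAGGAGUCGAGUGAUGGUUCAAA
miR-434-3p: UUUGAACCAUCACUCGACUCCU
MiR-3543 averaged 17.5 ± 15.4 rpm in EWH and 5.24 ± 2.32 rpm in control, and 8.29 rpm in EWH without EWH 3 and 4. With all libraries this was 45.3 ± 3.76 reads per 100 of miR-434-3p in EWH and 46.98 ± 6.46 in control (SD, n = 6 each). This proportion ran from 38.4 to 53.4 over all 12 libraries and did not differ detectably between groups (log2 difference −0.04, exact two-sided permutation p = 0.649 over 924 splits). The strand setting of the counting is not given in the sources used here. It is therefore not known whether reads of this pair were kept apart by strand, and miR-434-3p values are uncertain to that extent.

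Among the 298 tested miRNAs outside the members, those most like miR-127-3p by Spearman's rho over the 12 libraries were miR-300-3p (rho 0.99), miR-382-5p (0.98), miR-325-5p (0.97), miR-369-5p (0.97) and miR-495 (0.96). Of these 5, 4 belong to the miR-379/410 group of the same region, and miR-325-5p lies on chromosome X. The libraries share the split between EWH 3 and 4 and the rest. Without EWH 3 and 4 rho was 0.93 to 0.98 for the 5, and among the 6 controls it was 0.94 to 1. Because the 5 were picked by rho over these same libraries, high values in a subset are partly fixed by that choice. Over the 21 tested miRNAs of the miR-379/410 and Meg3-side lists rho ran from 0.79 to 0.99. Its median was 0.92, beside a median of 0.13 over all 298. Without EWH 3 and 4 rho of the 21 ran from 0.64 to 0.98, and among the 6 controls from 0.54 to 1. Such likeness was not limited to the region, and 17 of the 25 most alike miRNAs were in these lists. On other chromosomes, rho was 0.94 for miR-338-3p and 0.90 for miR-338-5p and miR-9a-5p. Without EWH 3 and 4 it was 0.89 for miR-338-3p and 0.83 for miR-338-5p and miR-9a-5p. MiR-3543, which lies in the region but in neither list, had a rho of 0.95. MiR-325-5p averaged 9.32 ± 7.11 rpm in EWH and 2.20 ± 1.04 rpm in control (SD, n = 6 each), and 5.07 rpm in EWH without EWH 3 and 4.

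The rest of the region lay in the same direction. In the miR-379/410 group 18 of 18 tested miRNAs averaged higher in EWH, as did 39.9% of all 303 tested miRNAs. The median log2 fold change was 1.18. EdgeR called 13 of them as higher and none as lower, where it called 11.2% of the 303 as higher. Without EWH 3 and 4 the median was 0.56 with 17 of 18 higher, beside 34.3% of all tested miRNAs, and edgeR called none. On the Meg3 side all 3 tested miRNAs were higher in mean, with a median of 1.35 (0.66 without EWH 3 and 4), and edgeR called 2 as higher. The most abundant of them were miR-409b, at 125 ± 130 rpm in EWH and 16.3 ± 7.06 rpm in control, miR-379-5p, at 65.2 ± 60.3 rpm in EWH and 22.6 ± 8.30 rpm in control, and miR-541-5p, at 26.6 ± 25.7 rpm in EWH and 8.40 ± 3.56 rpm in control (SD, n = 6 each). The summed miR-379/410 group ran from 109 to 1090 rpm in EWH and from 55.4 to 125 rpm in control, with EWH 3 and 4 highest, and the ratio of means was 4.39, or 1.85 without EWH 3 and 4. The Meg3 side ran from 5.33 to 76.4 rpm in EWH and from 1.87 to 9.23 rpm in control, with a ratio of means of 5.04, or 2.03 without EWH 3 and 4.

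Some markers of nervous tissue were highest in the libraries where the members were highest. The glial list, miR-338 and miR-219a, summed to 52.0 to 452 rpm in EWH and 38.8 to 96.4 rpm in control, with EWH 4 (452 rpm) and EWH 3 (296 rpm) highest. The ratio of its means, EWH over control, was 3.32 with all libraries and 2.04 without EWH 3 and 4. Of its 5 miRNAs 4 had higher means in EWH, some of them near 0. Among the 3 that were tested, 2 had higher mean log2 values in EWH, as did 39.9% of all tested miRNAs. Nearly all reads of the list were of the miR-338 arms. MiR-338-5p stood at 119 ± 79.7 rpm in EWH and 34.7 ± 11.7 rpm in control, and miR-338-3p at 90.7 ± 65.9 rpm in EWH and 27.5 ± 12.7 rpm in control (SD, n = 6 each). MiR-219a-1-3p averaged 1.05 rpm in EWH and 1.43 rpm in control, and the oligodendrocyte miRNA miR-219a-5p was near 0, absent in 4 EWH libraries and 5 controls and at most 0.0823 rpm.

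The neuronal list summed to 671 to 1823 rpm in EWH and 662 to 1397 rpm in control. EWH 4 (1823 rpm) and EWH 3 (1458 rpm) were again highest. Of its 17 miRNAs 13 were higher in mean in EWH, some of them near 0. Among the 5 that were tested, 4 had higher mean log2 values in EWH, as did 39.9% of all tested miRNAs. The ratio of the list's means was 1.19 with all libraries and 0.935, below control, without EWH 3 and 4. More of these reads were of miR-128-3p than of any other miRNA in the list. MiR-128-3p averaged 683 ± 126 rpm in EWH and 770 ± 264 rpm in control (SD, n = 6 each). Over the 5 tested neuronal miRNAs the median log2 fold change was 1.02, beside 1.50 for the tested members. Without EWH 3 and 4 these medians were 0.56 and 0.66, with 3 of the 5 neuronal miRNAs higher, as were 34.3% of all tested miRNAs. MiR-9a-5p ran from 62.3 to 490 rpm in EWH and from 39.6 to 89.9 rpm in control. Neuron-specific miR-124-3p ran from 0.161 to 4.98 rpm in EWH and from 0.0406 to 0.626 rpm in control. The part of these cell types in the levels of the Rtl1-antisense miRNAs was not tested.

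In no other marker list did EWH 3 and EWH 4 both exceed the highest control. The skeletal and cardiac muscle list summed to 713 to 1439 rpm in EWH and 429 to 1368 rpm in control, with EWH 3 highest and EWH 4 lowest of the EWH libraries. The endothelial list summed to 4264 to 6913 rpm in EWH and 3290 to 12305 rpm in control, and the erythrocyte list to 119 to 385 rpm in EWH and 80.4 to 364 rpm in control. The leukocyte list summed to 146 to 230.5 rpm in EWH and 131 to 298 rpm in control, and the epithelial list to 82.7 to 373 rpm in EWH and 64.4 to 729 rpm in control. Smooth muscle miRNAs summed to 331968 to 428677 rpm in EWH and 347013 to 426858 rpm in control. With all libraries the ratios of means were 0.89 for endothelium, 0.97 for erythrocytes, 0.84 for leukocytes, 0.49 for epithelium and 0.97 for smooth muscle. Without EWH 3 and 4 they were 0.82, 1.12, 0.76, 0.35 and 1.01 in the same order. Of the 7 tested epithelial miRNAs 2 had higher mean log2 values in EWH, with a log2 fold change of up to 1.57.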

How the data were processed

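Small RNA was sequenced from 12 aorta samples of female SHR. Per the labels' protocols, Trizol RNA was ligated to adaptors at both ends and a band with inserts of 15 to 35 nt was taken after RT-PCR. Per the submitters' processing notes the build was rn6, with aligner, counter, annotation and strand setting not given in the sources used here. A single table was deposited, with values in rpm (reads per 1000000 of a library total). It is named for TPM, but each column is a whole multiple of 1 step shared by all miRNAs, so that 100% of the values came out as whole reads within 0.01 read. Reads in the listed miRNAs were 76.4% to 80.6% of the totals, and counting error is smallest for the members with most reads.

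Columns were matched to samples by the labels' descriptions. The filter kept miRNAs that reached 1 rpm in 6 or more of the 12 libraries, and the test, on log2(rpm + 1), was limma 3.58.1 (trend, two-sided, R 4.3.3) and Benjamini-Hochberg adjustment over all 303, at a threshold of 0.05. On recovered reads edgeR 4.0.16 called 40 miRNAs and DESeq2 1.42.0 called 63. The limma and edgeR procedures were tested on simulated counts, and the DESeq2 fit was not. Named miRNAs are all members, the 5 most like miR-127-3p, the 3 most abundant others of the region, miR-3543 and up to 2 markers per list; not every marker is printed, and miR-219a-5p and miR-124-3p were chosen after their values were seen. Members, lists and tests were chosen with earlier results of these data known. Replicate pairs differed beyond sampling noise (ratio of chi-square to its degrees of freedom 119 to 3184 over 30 pairs), so none was counted as a repeat. Alternatives were other filters, pseudocounts and scalings, a replicate block and left-out libraries; edgeR with left-out libraries and the ratios between members were added after seeing the data. Sequences are from RefSeq (GRCr8), which matched 581 of 641 names. Figures and permutation tests used Python 3.11.15, scipy 1.17.1 and matplotlib 3.10.9.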

Additional observations from a re-analysis of the deposited data

Results flagged for a closer look

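In groups of 6, a sample was picked out where its gap to the next, as a share of the group's range, exceeded Dixon's 95% critical value. Chance flags about 1 in 20 groups, and 5 flags came from 42 groups examined. EWH 4 read 13.3 rpm in miR-136-3p, with the next EWH library at 5.57 rpm. EWH 4 also read 10.8 rpm in miR-431, with the next at 3.78 rpm. Control 2 read 0.501 rpm in miR-127-5p, or 12 reads, with the next control at 0.284 rpm. EWH 1 held 0.664 reads of miR-127-5p per 100 of miR-127-3p, with the next EWH library at 0.413. The same 10 reads of miR-127-5p gave EWH 1 a 3p share of 99.3% in miR-127, where the other EWH libraries lay between 99.59% and 99.63%.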

How the results depend on the processing

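All 5 tested members kept a positive log2 fold change in each of the 35 or 36 other settings tried, with the lowest values without EWH 3 and 4 together (0.37 for miR-136-3p to 0.92 for miR-433-3p). Their adjusted p over these settings ran from 0.000448 to 0.309 for miR-433-3p and from 0.0155 to 0.404 for miR-136-3p. Limma called 0 miRNAs with 12 libraries, 8 after quantile normalization (no member), and 1 (no member) without EWH 3 and 4 together, and 0 to 24 with a library left out (24 without EWH 2), of which 0 to 2 were members. EdgeR called 40 miRNAs with 4 members, 0 without EWH 3, EWH 4 or control 1, 4, 5 or 6, 30 to 46 (30, 31, 33, 37, 44 and 46) without another library, with 2 to 5 members, and 0 without EWH 3 and 4 together. DESeq2 called 63 with 5 members; the cause of these differences was not tested. Arm ratios called numbered 0 with 12 libraries, 3 at a pseudocount of 5 and 0 to 1 with a library left out, and miR-434 was never called. The log2 ratio to miR-127-3p changed sign for miR-431 (0.05 with 12 libraries, −0.088 without EWH 3 and 4, and −0.083 to 0.18 with a library left out) and for miR-434-3p (−0.09, and 0.038 without EWH 3 and 4). Same-numbered samples did not pair (correlation of deviations −0.50 to 0.31 over 6 numbers), and with the replicate number as a block limma called 0 miRNAs. Depth limits miR-433-5p most, at 0 to 9 reads per library.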
